A study of Homo sapiens with 6 samples.

Results

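ID1, ID2, ID3, ID4, BMP2, BMP4, INHBA, INHBB, FST and FSTL3 were followed in H2087-LCC cells by RNA-seq. These 10 genes were chosen by symbol, among the 21293 genes of the table, for their place in bone morphogenetic protein (BMP) and activin signaling. The rule used no measured value, but the choice was made with earlier results of these data known. H2087-LCC is a latency competent cancer (LCC) cell population that was selected in vivo from H2087, a human lung adenocarcinoma (LUAD) line, and that models dormant metastasis. Cells were incubated with TGFβ1 at 100 pM for 3 days (2 libraries) or for 7 days (2 libraries), or with the TGFβ type I receptor inhibitor SB505124 (SB) at 2.5 μM for 3 days (2 libraries), which sets the baseline by blocking endogenous TGFβ signaling. All 3 groups were the same cell population grown in culture. The study describes the 2 libraries of a group as technical replicates, so standard errors and p-values measure the spread between libraries and may not cover the spread between cultures. The SB libraries were all from 3 days, so in the comparison of 7 days of TGFβ with SB the agent and the time in culture cannot be told apart.

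The ID proteins are helix-loop-helix factors without a DNA-binding region that bind E proteins and keep them from DNA, and their genes are textbook direct targets of BMP signaling through SMAD1 and SMAD5. BMP2 and BMP4 are ligands that signal through the BMP type I and type II receptors. INHBA and INHBB encode the βA and βB subunits whose dimers are the activins, which signal, as TGFβ does, through SMAD2 and SMAD3, and FST (follistatin) and FSTL3 (follistatin-like) are secreted proteins that bind activins and keep them from their receptors. SB505124 blocks the type I receptors ALK4, ALK5 and ALK7, so it also blocks the activin receptors, while the BMP type I receptors are not its targets.

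FSTL3 and BMP2 were the members that rose most under TGFβ, near 20-fold and 10-fold at 3 days, while BMP4 and ID3 fell. ID2 rose at both times. ID1 stood near its SB level at 3 days and above it at 7 days, and ID3 was higher at 7 days than at 3 days. ID4, INHBB and FST were at or below 19 normalized counts in every library.

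The ID genes are shown first by the sequence just before their transcription starts, since all 3 expressed ID genes were higher at 7 days than at 3 days. RefSeq promoters on GRCh38.p14 were found for 9 of the 10 members, and the 250 bases upstream of the start of ID1 (chr20:31605039-31605288, plus strand), ID2 (chr2:8681806-8682055, plus strand) and ID3 (chr1:23559502-23559751, minus strand) are given 5′ to 3′. Capitals mark the SMAD box, the core of the SMAD-binding element, spelled GTCT or, on the other strand, AGAC.
ID1: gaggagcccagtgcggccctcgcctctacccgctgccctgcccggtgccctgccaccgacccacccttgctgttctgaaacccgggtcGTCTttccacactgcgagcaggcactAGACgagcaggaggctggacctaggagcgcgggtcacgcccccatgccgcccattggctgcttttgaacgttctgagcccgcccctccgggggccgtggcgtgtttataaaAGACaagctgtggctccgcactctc
ID2: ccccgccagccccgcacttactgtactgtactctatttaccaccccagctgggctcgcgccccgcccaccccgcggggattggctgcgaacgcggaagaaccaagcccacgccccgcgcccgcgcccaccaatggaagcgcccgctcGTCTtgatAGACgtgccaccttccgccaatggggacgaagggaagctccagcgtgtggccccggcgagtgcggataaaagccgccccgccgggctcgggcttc
ID3: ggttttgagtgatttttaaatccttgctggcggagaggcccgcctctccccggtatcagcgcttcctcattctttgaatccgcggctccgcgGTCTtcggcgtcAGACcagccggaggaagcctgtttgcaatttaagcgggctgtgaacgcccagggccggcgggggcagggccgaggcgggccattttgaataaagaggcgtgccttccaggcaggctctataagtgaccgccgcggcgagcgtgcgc
The ID1 window held 3 SMAD boxes, beginning 162, 136 and 25 bases before the start. The ID2 window held 2, at 103 and 95 bases, and the ID3 window held 2, at 158 and 146 bases. A SMAD box was in 77.5% of the 35116 RefSeq promoter windows of this length, so its presence does not set these genes apart. The palindrome GGCGCC, a GC motif that SMAD1 and SMAD5 can bind, was in 16.4% of the windows and in none of those of ID1, ID2 and ID3. Among the other members it was in windows of INHBB, BMP4 and FSTL3. Bases farther upstream than 250 were not searched, so its absence holds for these windows only. The CCAAT box (CCAAT or ATTGG) was present once in the ID1 window, 3 times in the ID2 window and not in the ID3 window, against 32.0% of all windows. A match of letters does not show that a factor bound there.

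Values are normalized counts, that is, reads on a gene scaled by the authors to the library's size and given as whole numbers. Totals were 34306283 to 36340734 per library, and from the spacing of low values 1 read was worth 0.896 to 1.10 normalized counts, which puts the assigned reads at an estimated 32000000 to 40000000 per library. Fold changes are differences in mean log2(normalized count + 1) with standard errors (SE) or 95% confidence intervals (CI), tested with limma over the 14395 genes whose mean over the 6 libraries was 10 or more, with Benjamini-Hochberg adjustment at 0.05 for each comparison. Of the 10 members, 7 passed that minimum. The markers used for the cell line were the epithelial genes EPCAM, KRT7, KRT8, KRT18 and KRT19 and SOX2, a pluripotency factor that the paper reports in these cells. Together they gave 89317 to 114430 normalized counts per library, of which KRT8 and KRT18 gave the most. Within that list EPCAM (log2 fold changes -0.61 at 3 days and -1.62 at 7 days from SB) and SOX2 (-1.77 and -1.03) were called lower at both times. So was KRT18 (-0.29 and -0.56, named after its values were seen). The SB libraries of SOX2 stood apart, at 1552 and 2658. KRT7 (5860 and 6183 normalized counts under SB, 15440 and 18905 at 3 days, 13979 and 11230 at 7 days) was called higher, and KRT8 and KRT19 did not pass the threshold. The KRT18 call at 3 days was lost without replicate 2 of the SB group or replicate 1 of the 3-day group (limma adjusted p = 0.0714 and 0.162). PTPRC, CD3E and CD14, markers of blood cells, gave 0 to 8 each, and CD68, which is also a lysosomal gene of many cell types, 4368 to 5113. PECAM1, VWF and CDH5, markers of endothelium, summed to 62 to 69 in the SB libraries, 67 to 78 at 3 days and 56 to 62 at 7 days. PECAM1, the tested one of these and named after its values were seen, was at 41 and 36, then 61 and 67, then 56 and 53, and was called higher at 3 days (log2 fold change 0.72, limma adjusted p = 0.0391), a call lost without replicate 2 of the SB group (0.0959) or either 3-day library (0.121 and 0.18). CDH5 was at 14 and 20, then 1 and 5, then 2 and 0. The part of these marker changes in the members' changes was not tested. The TGFβ response genes PMEPA1, SKIL and TGFBI, used as a check of the labels, were all called higher at both times than under SB (median difference on the log2 scale 2.68 at 3 days and 3.77 at 7 days).

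**Figure D1:**
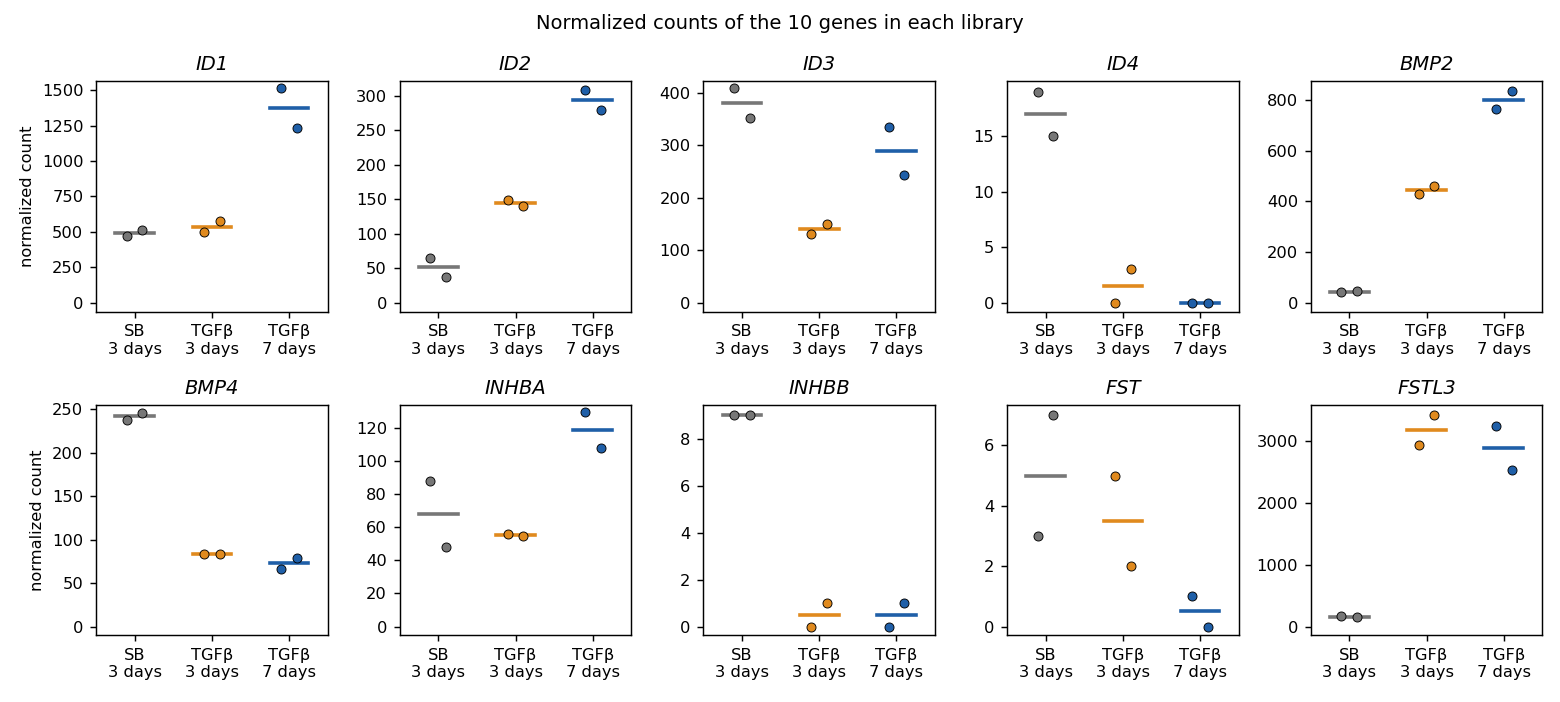
Normalized counts (y axis, linear, its own range for each gene) of the 10 genes in each of the 6 libraries (points) by group (x axis), with the mean of the 2 libraries as a bar. FSTL3 and BMP2 rise from SB to both TGFβ groups without overlap, ID1 is near its SB level at 3 days and highest at 7 days, and ID3 is lowest at 3 days.

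ID1 (chromosome 20, 30193086 to 30194318, plus strand, GRCh37) was at 472 and 517 normalized counts under SB, 496 and 577 after 3 days of TGFβ, and 1512 and 1231 after 7 days. The SB and 3-day libraries overlapped and both 7-day libraries were far above them. The log2 fold change at 3 days was 0.11 (95% CI -0.18 to 0.41, limma adjusted p = 0.564), whereas at 7 days it was 1.46 (95% CI 1.17 to 1.76, adjusted p = 3.31e-06). Between 7 days and 3 days ID1 rose 2.56-fold (log2 fold change 1.35, SE 0.13, limma adjusted p = 4.34e-05).

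ID2 (chromosome 2, 8818975 to 8824591, plus strand) was at 65 and 38 under SB, 149 and 141 at 3 days, and 308 and 279 at 7 days. Each TGFβ group stood wholly above the one before it. ID2 rose 2.82-fold at 3 days (log2 fold change 1.52, SE 0.24, limma adjusted p = 0.000458) and 5.70-fold at 7 days (2.54, adjusted p = 3.69e-06). The further rise between 3 days and 7 days was 2.02-fold (log2 fold change 1.01, adjusted p = 0.0072). That last call was lost with no filter on low values (limma adjusted p = 0.0615) and without replicate 1 of the 7-day group (log2 fold change 0.94, adjusted p = 0.0592). Of the ID2 exons, 145 bases lie opposite ID2-AS1, and the library kit did not mark strand.

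ID3 (chromosome 1, 23884417 to 23885992, minus strand) was at 409 and 352 under SB, 131 and 150 at 3 days, and 336 and 244 at 7 days. The 3-day libraries were below all others, and both 7-day libraries were below the SB libraries. ID3 fell at 3 days, 2.71-fold (log2 fold change -1.43, SE 0.18, limma adjusted p = 9.87e-05), and was then 2.06-fold higher at 7 days than at 3 days (a log2 difference of 1.03, adjusted p = 0.00159). At 7 days its log2 fold change from SB was -0.40 (95% CI -0.80 to -0.01), which did not pass the threshold (limma adjusted p = 0.0772). Without replicate 1 of the 7-day group that difference was -0.63 and was called (adjusted p = 0.0313).

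ID4 (chromosome 6, 19837601 to 19842428, plus strand) was at 19 and 15 under SB, at 0 and 3 at 3 days, and at 0 in both 7-day libraries. No TGFβ library reached the SB libraries. Its mean was under the minimum of 10, so it was not tested with the others. The summed SB counts were 11.3 times the 3-day counts, 34 against 3, with a counting interval of 3.56 to 57.7. At 7 days ID4 was at least 5.67-fold lower than under SB, taking a floor of 3 counts per library for a count of 0. Intervals and floors of this kind cover counting error only. With no filter on low values, limma gave an adjusted p of 0.0392 at 3 days and 0.00779 at 7 days.

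BMP2 (chromosome 20, 6748333 to 6760893, plus strand) was at 41 and 48 under SB, 428 and 460 at 3 days, and 766 and 835 at 7 days. The 3 groups were far apart with no overlap. BMP2 rose 9.98-fold at 3 days (log2 fold change 3.29, SE 0.15, limma adjusted p = 2.38e-08) and 18.0-fold at 7 days (4.14, adjusted p = 1.48e-09). From 3 days to 7 days it rose a further 1.80-fold (log2 fold change 0.85, limma adjusted p = 0.00173).

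BMP4 (chromosome 14, 54416454 to 54425479, minus strand) was at 238 and 246 under SB, 83 and 83 at 3 days, and 66 and 79 at 7 days. All TGFβ libraries were well below the SB libraries, and the 7-day libraries were a little below the 3-day ones. Of the BMP4 exons, 506 bases lie opposite the gene ENSG00000287156, which has no values here, and the library kit did not mark strand. BMP4 fell 2.92-fold at 3 days (log2 fold change -1.53, SE 0.19, limma adjusted p = 7.49e-05) and 3.34-fold at 7 days (-1.73, adjusted p = 1.26e-05). Between the TGFβ groups the log2 fold change was -0.20 (95% CI -0.61 to 0.21, limma adjusted p = 0.442). BMP4 was the more abundant of these ligands under SB and BMP2 under TGFβ: per kb of exon, BMP4 stood at 78.2 and BMP2 at 12.6 normalized counts under SB, against 26.8 and 125 at 3 days.

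INHBA (chromosome 7, 41706766 to 41745432, minus strand) was at 88 and 48 under SB, 56 and 55 at 3 days, and 130 and 108 at 7 days. The SB libraries spanned the 3-day libraries, and both 7-day libraries were above all others. At 3 days the log2 fold change was -0.23 (SE 0.28, limma adjusted p = 0.585), and it was 0.21 without replicate 1 of the SB group. At 7 days INHBA rose 1.75-fold over SB (log2 fold change 0.86, adjusted p = 0.0204) and 2.14-fold over 3 days (1.08, adjusted p = 0.0116). The call against SB was lost without the trend in limma (adjusted p = 0.0531), with no filter on low values (0.0879), without replicate 2 of the SB group (log2 fold change 0.43, adjusted p = 0.145) and without replicate 1 of the 7-day group (0.72, adjusted p = 0.126). The call against 3 days was lost with no filter (limma adjusted p = 0.0751) and without replicate 1 of the 7-day group (log2 fold change 0.95, adjusted p = 0.0887). INHBA-AS1, whose exons lie opposite 248 bases of the INHBA exons, was at 1 to 6 normalized counts in the 6 libraries.

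INHBB (chromosome 2, 121103712 to 121109379, plus strand) was at 9 in both SB libraries and at 0 and 1 in each TGFβ group. Its summed SB count was 18 times that of either TGFβ group, with a counting interval of 2.84 to 750. With no filter on low values, limma gave an adjusted p of 0.0243 at 3 days and 0.011 at 7 days. Of the activin subunit genes among the members, INHBA was thus at 48 or more in every library and INHBB at 9 or fewer. INHBE, a subunit gene outside the members that is described below, was at 55 or more.

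FST (chromosome 5, 52776456 to 52782964, plus strand) was at 3 and 7 under SB, 5 and 2 at 3 days, and 1 and 0 at 7 days. SB and 3 days overlapped, and the 7-day libraries were the lowest. The summed count under SB was 1.43 times that at 3 days, with a counting interval of 0.491 to 4.42, and 10 times that at 7 days, with an interval of 1.42 to 434. With no filter, limma gave adjusted p values of 0.681 at 3 days and 0.0503 at 7 days.

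FSTL3 (chromosome 19, 676392 to 683392, plus strand) was at 172 and 152 under SB, 2942 and 3427 at 3 days, and 3247 and 2539 at 7 days. All TGFβ libraries were far above SB, and the TGFβ groups overlapped each other. FSTL3 rose 19.7-fold at 3 days (log2 fold change 4.29, SE 0.13, limma adjusted p = 1.67e-09) and 17.9-fold at 7 days (4.14, adjusted p = 5.62e-10). Between 7 days and 3 days its log2 fold change was -0.15 (95% CI -0.44 to 0.15, limma adjusted p = 0.436), and 0.03 without replicate 2 of the 7-day group.

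**Figure D2:**
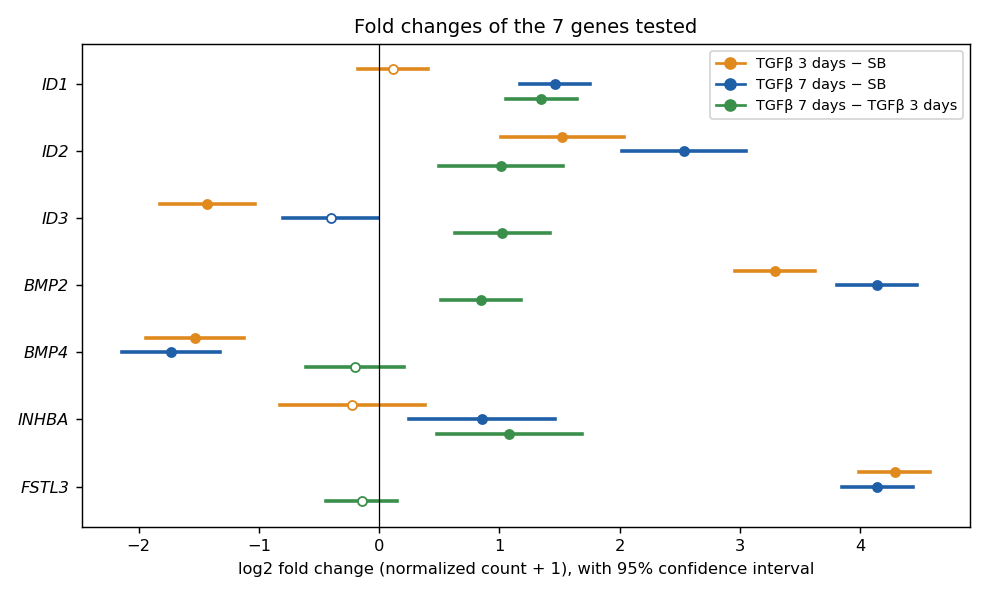
Log2 fold change of normalized count + 1 (x axis) with its 95% confidence interval (lines) for the 7 genes tested (y axis) in the 3 comparisons (colors). Filled points passed the limma threshold; FSTL3 and BMP2 lie above 3 in both comparisons with SB, while ID3 lies at -1.43 for 3 days against SB and at 1.03 for 7 days against 3 days.

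Counted over the 7 members tested, 5 were called at 3 days against SB, against 29.0% of all genes tested. BMP2, FSTL3 and ID2 were the 3 called higher (14.9% of all genes), and BMP4 and ID3 the 2 called lower (14.0%). At 7 days against SB, 6 were called (54.5% of all genes), namely BMP2, FSTL3, ID1, ID2 and INHBA, 5 higher (27.7%), and BMP4, 1 lower (26.9%). Between 7 days and 3 days, 5 members were called (33.2% of all genes), which were BMP2, ID1, ID2, ID3 and INHBA, all 5 higher (17.0%) and 0 lower (16.2%). BMP4 and FSTL3, the other tested members, had log2 fold changes of -0.20 and -0.15 in that comparison. The median log2 fold change of the 7 tested members was 0.12 at 3 days and 1.46 at 7 days against SB, beside -0.02 and 0.00 for all genes tested, and 1.01 between 7 days and 3 days, beside 0.02. ID4, INHBB and FST are not in these counts. The 3 comparisons share libraries, so they are not independent of one another.

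**Figure D3:**
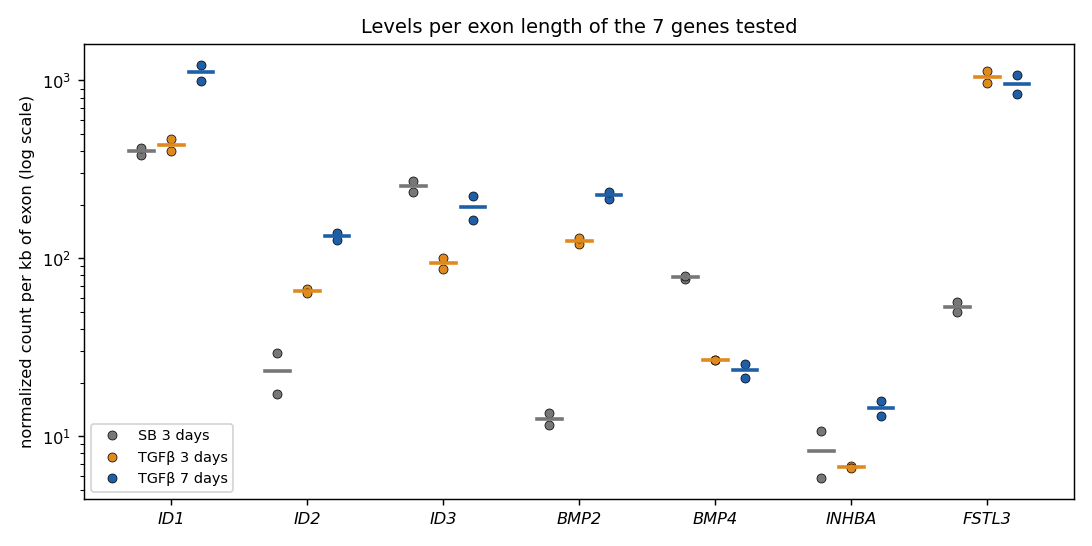
Normalized count per kb of exon (y axis, log scale) for the 7 genes tested (x axis) in each library (points, colored by group), with the group mean as a bar. Under SB ID1 and ID3 are the most abundant; at 3 days FSTL3 leads at 1050 per kb and at 7 days ID1 (1112) and FSTL3 (954) overlap.

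Divided by the length of the gene's exons, the levels can be set in order within a group. Under SB the order was ID1 (401 normalized counts per kb), ID3 (254), BMP4 (78.2), FSTL3 (53.4), ID2 (23.3), BMP2 (12.6), INHBA (8.21), ID4 (4.39), INHBB (2.81) and FST (1.82), and no neighbours in it overlapped between libraries. At 3 days of TGFβ FSTL3 (1050) came first, then ID1 (435), BMP2 (125), ID3 (93.9), ID2 (65.5), BMP4 (26.8) and INHBA (6.70), again with no overlap of neighbours. FST (1.27), ID4 (0.387) and INHBB (0.156) followed, and their libraries overlapped. At 7 days ID1 (1112) and FSTL3 (954) overlapped, as did BMP2 (226) and ID3 (194), followed by ID2 (133), BMP4 (23.4) and INHBA (14.4), with FST (0.182), INHBB (0.156) and ID4 (0) lowest and overlapping. Per kb, therefore, ID1 was the most abundant ID gene in every group. ID2 was below ID3 per kb in every group, but under TGFβ this order rested on exon length alone. Their counts overlapped, at 149 and 141 for ID2 and 131 and 150 for ID3 at 3 days. At 7 days they were 308 and 279 against 336 and 244. The lengths, 2213 bases for ID2 and 1496 for ID3, join all annotated exons, and which transcripts were expressed was not tested.

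The other genes of the pathway are given by role, from lists of its ligands, receptors, SMADs, antagonists and response genes. Their counts stand beside 29.0% of all genes called at 3 days against SB, 54.5% at 7 days against SB and 33.2% between 7 days and 3 days. Of 14 other BMP and GDF ligands, 9 were in the table and 5 were tested. GDF5, a ligand of joint development, was the only one called in any comparison, and it fell at 3 days (25 or fewer normalized counts in every library, log2 fold change -1.81, limma adjusted p = 0.0315). That call was lost without the trend in limma (adjusted p = 0.0859) and with no filter on low values (0.126). It was also lost without either SB library or replicate 2 of the 3-day group. Their median log2 fold changes were -0.38, -0.30 and 0.39 for 3 days against SB, 7 days against SB, and 7 days against 3 days. Of 8 other activin, inhibin and nodal class ligands, 7 were in the table and 4 were tested, with medians of -0.20, 0.03 and 0.28 in the same order. INHBE, the βE subunit gene, was at 55 and 70 under SB, 56 and 70 at 3 days, and 196 and 177 at 7 days. Its SB and 3-day libraries overlapped and both 7-day libraries were above them, with log2 fold changes of 1.57 from SB (limma adjusted p = 8.67e-05) and 1.56 from 3 days. None of the 4 passed the threshold at 3 days, none was called lower, and at 7 days against 3 days GDF11, named after its values were seen, was the other one called higher.

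Of 15 receptors and coreceptors, 11 were tested, of which 4 were called higher and 1 lower at 3 days, 6 higher and 1 lower at 7 days, and 5 higher and 0 lower between 7 days and 3 days, with median log2 fold changes of 0.21, 0.57 and 0.33. At 7 days the 7 called of 11 are near the 54.5% of all genes. BMPR1B, a BMP type I receptor, was at 35 and 50 under SB, 166 and 153 at 3 days, and 308 and 354 at 7 days, with no overlap of groups. Its log2 fold changes from SB were 1.90 and 2.95. BMPR2, a BMP type II receptor, was at 2161 and 2261, then 4062 and 3885, then 5765 and 6246, with log2 fold changes of 0.85 and 1.44. ACVR1, a type I receptor for BMPs, and ENG (endoglin), a coreceptor, were called higher at both times, with log2 fold changes of 0.69 and 1.02 for ACVR1 and 0.75 and 1.60 for ENG. Of the receptors below a log2 fold change of 1, named after their values were seen, BMPR1A and ACVR2A were called higher at 7 days (0.57 and 0.51), and ACVR1C, the ALK7 receptor, was called lower at both times (-0.79 and -0.77). The ACVR1C calls were lost with no filter on low values (limma adjusted p = 0.0992 and 0.0641), the 3-day call also without any one of the 4 libraries compared (0.0775 to 0.241) and the 7-day call without either SB library (0.0746 and 0.0682) or replicate 1 of the 7-day group (0.232). The ACVR2A call was lost without replicate 2 of the 7-day group (limma adjusted p = 0.0563), and the calls of ACVR1 and BMPR1A between 7 days and 3 days without any one of the 4 libraries compared (0.0509 to 0.244).

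**Figure D4:**
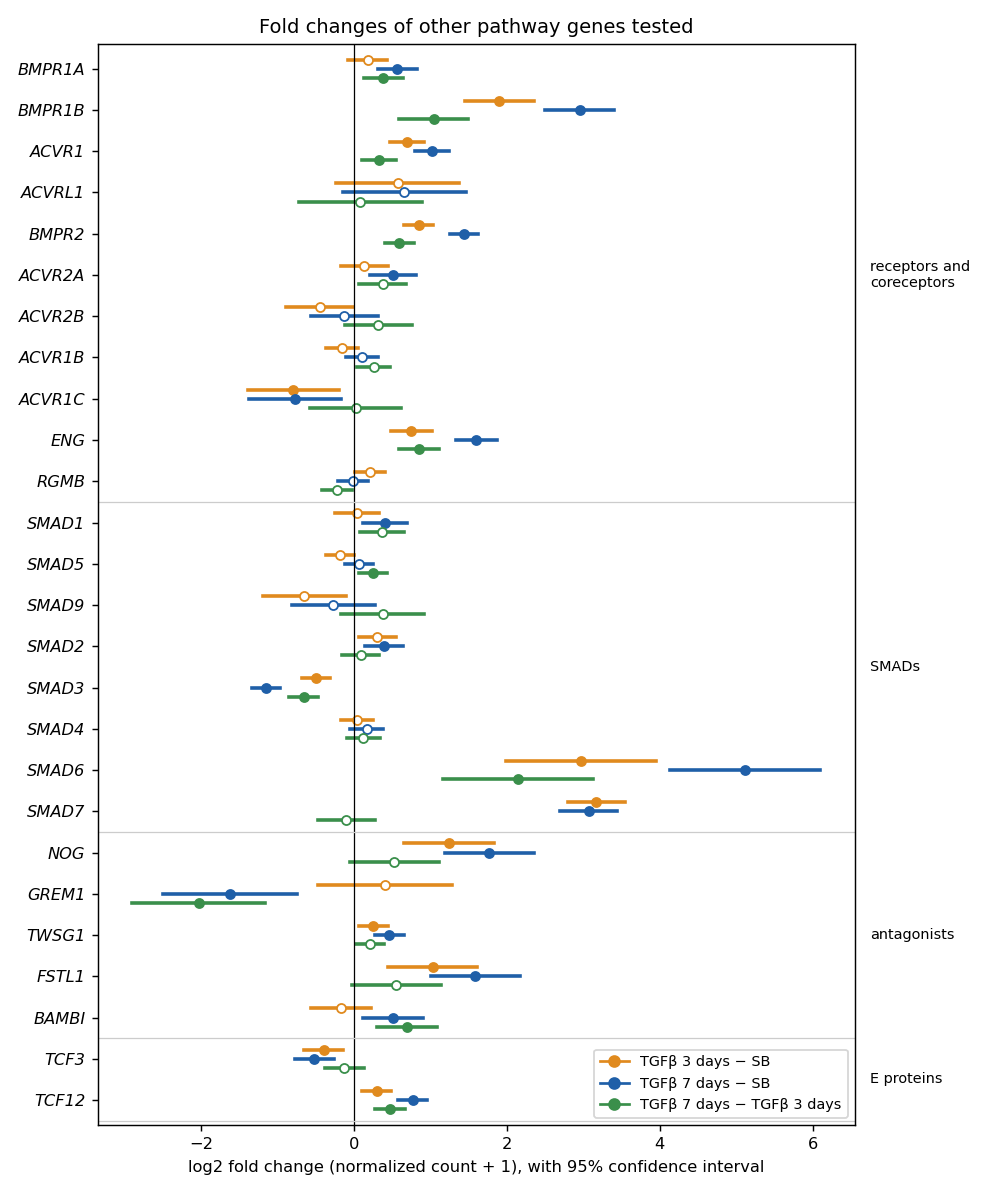
Log2 fold change of normalized count + 1 (x axis) with its 95% confidence interval (lines) for the receptors, SMADs, antagonists and E proteins tested (y axis), in the 3 comparisons (colors), with filled points past the limma threshold. SMAD6 (5.12 at 7 days) and SMAD7 (3.17 at 3 days) lie farthest to the right, and GREM1 (-2.03 between 7 days and 3 days) farthest to the left. SMAD6 was at 2 and 9 normalized counts under SB, a low baseline.

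All 8 SMAD genes were tested. At 3 days SMAD6 and SMAD7 were called higher and SMAD3 lower, and at 7 days SMAD1 and SMAD2 were called higher as well (median log2 fold changes 0.04 and 0.28). Those called of 8 were 2 higher and 1 lower at 3 days, 4 and 1 at 7 days, and 2 and 1 between them. These counts are near the 29.0%, 54.5% and 33.2% of all genes. SMAD6, an inhibitor of BMP receptor signaling, was at 2 and 9 under SB, 39 and 45 at 3 days, and 194 and 185 at 7 days. Its groups did not overlap, and its log2 fold changes from SB were 2.97 (limma adjusted p = 0.000388) and 5.12 (adjusted p = 2.26e-06). From 3 days to 7 days it was 2.15 (limma adjusted p = 0.00397, and 0.0621 with no filter). The SB mean of SMAD6 was 5.5, so the size of its changes from SB depends on a low baseline. Over alternatives that kept all libraries they were 2.24 to 3.12 at 3 days and 4.30 to 5.29 at 7 days. With 1 library left out they were 2.10 to 3.84 and 4.25 to 5.99. SMAD7, which inhibits TGFβ receptor signaling, was at 112 and 79, then 916 and 799, then 854 and 747. It rose by 3.17 at 3 days and 3.07 at 7 days on the log2 scale, with a difference of -0.10 between the TGFβ groups (limma adjusted p = 0.69). SMAD3, the activin and TGFβ effector, was at 11488 and 10618 under SB, 8171 and 7518 at 3 days, and 5101 and 4843 at 7 days, with log2 fold changes of -0.49 and -1.15. Between 7 days and 3 days, SMAD6 and SMAD5 were called higher and SMAD3 lower (-0.66), and the median was 0.19. SMAD1, a BMP effector, had log2 fold changes of 0.04 and 0.40, and SMAD2, a TGFβ and activin effector, of 0.30 and 0.40 at 3 days and 7 days. The SMAD1 call at 7 days was lost without the trend in limma (adjusted p = 0.0675) and with no filter on low values (0.0731). It was also lost without replicate 1 of the SB group or either 7-day library. The SMAD2 call was lost without replicate 2 of either group, and that of SMAD5 without any one of the 4 libraries compared.

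Of 17 secreted antagonists and BAMBI, 15 were in the table and 5 were tested, with 3 called higher at 3 days, 4 higher and 1 lower at 7 days, and 1 higher and 1 lower between them (medians 0.41, 0.52 and 0.53). The 2 called of 5 between 7 days and 3 days are near the 33.2% of all genes. NOG (noggin), which binds BMP2 and BMP4, was at 20 and 27 under SB, 65 and 49 at 3 days, and 77 and 87 at 7 days. Its log2 fold changes were 1.24 (limma adjusted p = 0.00441) and 1.77 (adjusted p = 0.000167), and the first call was lost without replicate 1 of the 3-day group (0.0543). GREM1 (gremlin), another BMP antagonist, was at 155 and 58, then 153 and 104, then 38 and 24, and fell at 7 days by 1.62 from SB and by 2.03 from 3 days on the log2 scale. Without replicate 1 of the SB group the fall from SB was -0.92 and was not called (limma adjusted p = 0.0518), and with no filter on low values neither call was kept (0.0632 from SB and 0.059 from 3 days). FSTL1 and, named after its values were seen, TWSG1 were called higher at both times (1.03 and 1.59 for FSTL1, 0.25 and 0.46 for TWSG1). The FSTL1 call at 3 days was lost with no filter on low values (limma adjusted p = 0.056). It was also lost without replicate 1 of the SB group (log2 fold change 0.85) or of the 3-day group (0.91). The TWSG1 call at 3 days was lost without any one of the 4 libraries compared (limma adjusted p from 0.0792 to 0.28). BAMBI, a decoy receptor also named after its values were seen, was called higher at 7 days (log2 fold change 0.52 from SB and 0.69 from 3 days). The call from SB was lost with equal library totals (limma adjusted p = 0.0563), without the trend (0.052) and with no filter (0.0786). It was also lost without replicate 1 of the SB group and without either 7-day library. The call of BAMBI against 3 days was lost with no filter (limma adjusted p = 0.0609), and without replicate 1 of the 3-day group or either 7-day library.

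Of 10 other BMP response genes, a list that shares SMAD6, SMAD7, SMAD9 and BAMBI with those above, 7 were tested, with 3 called higher at 3 days, 4 at 7 days and 3 between them, and 0 lower in any of the 3 comparisons (medians 0.24, 0.52 and 0.38). At 7 days the 4 called of 7 are near the 54.5% of all genes. SMAD9 and, named after their values were seen, HEY1 and MSX1 were tested and called in no comparison. ATOH8, also so named, was under the minimum mean. It was at 10 and 17 under SB, 7 and 1 at 3 days, and 0 and 1 at 7 days. MSX2, a homeobox gene, was the one not yet described among those called, at 46 and 27 under SB, 72 and 82 at 3 days, and 128 and 131 at 7 days. Its log2 fold changes were 1.10 and 1.85 from SB and 0.75 between the TGFβ groups. The first call was lost with no filter on low values (limma adjusted p = 0.0609), and the last with no filter (0.135) and without any one of the 4 libraries compared (0.0885 to 0.189). Of the E proteins that ID proteins bind, TCF12 was called higher at 3 days and 7 days (log2 fold changes 0.30 and 0.77) and TCF3 lower (-0.39 and -0.52), with medians of the list at -0.05 and 0.13. Between 7 days and 3 days TCF12 was again higher (0.47), and the median was 0.17. At 3 days the TCF12 call was lost without the trend in limma (adjusted p = 0.095), with no filter (0.0606), with equal library totals (0.0553) and with the 4 libraries compared alone (0.0508). The TCF3 call at 3 days was lost without the trend (limma adjusted p = 0.107) and with no filter (0.102). Leaving out replicate 1 of the SB group or either 3-day library also lost the TCF12 call. Leaving out replicate 2 of the SB group or replicate 1 of the 3-day group lost the TCF3 call. TCF4 was listed at 0 in every library.

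For each tested member, the gene with a mean of at least 100 whose profile over the 6 libraries lay nearest was found by Euclidean distance on log2(normalized count + 1), centred on each gene's mean. Nearest were IFITM10 to ID1 (distance 0.251), DNER to ID2 (0.288), ZNF48 to ID3 (0.465), DIXDC1 to BMP2 (0.288), TCEA3 to BMP4 (0.257), LINC01355 to INHBA (0.591) and VASN to FSTL3 (0.596), each out of some 11388 genes. IFITM10 was at 104 and 107 under SB, 106 and 124 at 3 days, and 376 and 306 at 7 days. DIXDC1 was at 277 and 370, then 2795 and 2724, then 4978 and 4987. With 6 libraries in 3 groups such a likeness is a description of these libraries.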

How the data were processed

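RNA was measured in 6 libraries (3 groups of 2) made with a polyA kit that does not mark strand. The authors checked reads with FastQC 0.11.5, mapped them to hg19 with STAR, counted them on genes with HTSeq 0.6.1p1 and scaled each library by its size. The deposited values, recorded here under the unit score, are these normalized counts rounded to whole numbers, so a count model was not used.

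Values were transformed as log2(value + 1). Genes averaging 10 or more over the libraries (14395) entered 1 limma 3.58.1 fit (R 4.3.3; 6 libraries, group as the only term, trend on mean expression, 3 residual degrees of freedom), with Benjamini-Hochberg adjustment at 0.05. The steps were tested on simulated data. Members, lists, tests and naming rules were chosen with earlier results of these data known. Named beside the members were list genes past the threshold with an absolute log2 fold change of at least 1, the SMADs, E proteins, INHBA-AS1 and TGFβ response genes, and each tested member's nearest profile. Gene positions and exon lengths came from GENCODE lifted to GRCh37, and promoters from RefSeq. The protein sequences and the promoter of BMP2 are not used here. Of the lists, 1 blood cell marker and 1 TGFβ response gene are not reported here.

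Alternatives were a pseudocount of 0.5 or 5, no filter, a minimum mean of 50, scaling by median of ratios, equal totals or upper quartile, no trend, the 4 libraries compared alone, a replicate block and each library left out.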

Additional observations from a re-analysis of the deposited data

Results flagged for a closer look

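Besides the comparisons with SB, the effect of TGFβ differed between 3 days and 7 days for 5 of the 7 members tested, by the limma test of 7 days against 3 days over all genes. The difference in log2 fold change was 1.35 for ID1, 1.08 for INHBA, 1.03 for ID3, 1.01 for ID2 and 0.85 for BMP2, all higher at 7 days, in 2 of 2 libraries against both 3-day libraries for each gene. Of all genes tested, 33.2% were called in this comparison. The adjusted p was 4.34e-05 for ID1, 0.0116 for INHBA, 0.00159 for ID3, 0.0072 for ID2 and 0.00173 for BMP2. All SB libraries were from 3 days, so a change with time under TGFβ and a change with time in culture cannot be told apart. No group held enough libraries for a test of a single library that stood apart.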

How the results depend on the processing

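Of 294 values of the 21 member comparisons under the alternatives, 283 kept their direction and their side of the threshold, 8 lost the call (ID2 and INHBA, given above), 1 gained it (ID3 at 7 days) and 2 reversed. Genes called in the main fit numbered 4170 at 3 days against SB, 7851 at 7 days against SB and 4775 between 7 days and 3 days. The last count was 3122 without the trend. With no filter it was 3042, and 3 of the members were called. The causes were not tested. In each comparison with SB, 7 members were called with no filter, since ID4 and INHBB were then tested and called lower. Leaving out 1 library gave 2609 to 3877 genes called at 3 days (2609 without replicate 1 of the 3-day group), 5913 to 7687 at 7 days and 2314 to 3284 between them (2810 without replicate 1 of the 3-day group, 2573 and 2314 without replicates 1 and 2 of the 7-day group). Members called were then 5 to 5, 5 to 6 and 3 to 5 in that order, the 3 without replicate 1 of the 7-day group.

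The replicate numbers were not taken as pairs, since deviations of same-numbered libraries correlated at 0.208 (SB and 3 days), -0.130 (SB and 7 days) and -0.647 (3 days and 7 days). By the last value, the 3-day and 7-day groups shared a difference between libraries with the numbers crossed. The main fit has no term for that difference, and its source was not tested. The replicate block gave 3943, 7546 and 4485 genes called and 5, 6 and 5 members, and changed no call of a member. Among the other genes named, it lost the calls of SMAD5 between 7 days and 3 days (limma adjusted p = 0.0841) and of TWSG1 (0.0927) and PECAM1 (0.0558) at 3 days, and gained that of GDF5 at 7 days against SB (0.0438). A block with crossed numbers, added after the data were seen, gave 5404, 8763 and 5972 genes, each more than in the main fit. Other calls near the threshold were also lost with all libraries kept, without the trend or with no filter. Among them were ACVR1 (limma adjusted p = 0.0954 and 0.0789) and BMPR1A (0.0578 and 0.057) between 7 days and 3 days. At 3 days against SB they included KRT18 (0.1 and 0.0698) and TWSG1 (0.113 and 0.0616).

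Some values, none past the threshold except as said, reversed when 1 library was left out, and their ranges over such fits on the log2 scale were as follows. Between 7 days and 3 days they were -0.323 to 0.0322 for FSTL3, -0.275 to 0.0193 for TCF3, -0.0760 to 1.25 for GDF5 and -0.229 to 0.276 for ACVR1C. At 3 days against SB they were -0.656 to 0.205 for INHBA, -0.295 to 1.11 for GREM1 (past the threshold at 1.11), -0.409 to 0.0625 for BAMBI, -0.158 to 0.184 for INHBE, -0.146 to 0.220 for SMAD1 and -0.0143 to 0.100 for SMAD4. At 7 days against SB they were -0.182 to 0.245 for GDF11, whose call between 7 days and 3 days was also lost without any one of the 4 libraries (limma adjusted p from 0.0734 to 0.2). With equal library totals INHBE was at -0.0421, SMAD1 at -0.0186 and SMAD4 at -0.0128 at 3 days, and GDF11 at -0.0162 at 7 days, all against SB. Scaling moved the median of all genes to -0.08 at most.

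At this depth ID4, INHBB and FST are limited by counting, and 2 libraries in each group limit the rest. Libraries of a group differed beyond counting error, with a median chi-square of 3.36 to 5.13 over genes with a mean of at least 100.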
